A study of Mus musculus with 15 samples.

Results

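Mammospheres treated with TAE226, an inhibitor of focal adhesion kinase (FAK), were compared directly with mammospheres treated with PP2, an inhibitor of Src family kinases. The comparison holds the 3 samples titled TAE226 and the 3 titled PP2, which are 6 of the 15 samples of the series. Mammospheres are floating spheres of epithelial cells. They were grown from primary mammary tumour cells of FVB/N mice that carry the polyoma middle T oncogene (PyMT) from the MMTV promoter of mouse mammary tumour virus, which drives it in mammary epithelium. Both groups, and the 3 vehicle samples shown beside them, had this genotype and the same medium, serum-free with EGF, FGF and B27. An inhibitor or vehicle was present for the last 2 days of a 12-day culture. The sources used here give no dose for either inhibitor, so the compounds were matched in time but not known to be matched in dose. The labels call the samples biological replicates without saying if they came from different mice or different cultures. The p-values therefore reflect only how far these samples spread, which may be technical.

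FAK is a cytoplasmic tyrosine kinase that is recruited to integrin adhesions, where its autophosphorylated form binds Src, and the pair phosphorylates paxillin, p130Cas and other adhesion proteins. Src family kinases also act outside adhesions, downstream of growth factor and cytokine receptors. PyMT has no kinase activity of its own: it binds Src family kinases, is phosphorylated by them, and then recruits PI3-kinase, Shc and phospholipase C gamma. TAE226 is known to act on the FAK relative Pyk2 and on the insulin and IGF1 receptors as well, and PP2 on Csk and a few other kinases. Kinase activity was not measured here. The study's title concerns the phosphatase Shp2 and senescence, and the FAK and Src inhibitors are among the agents whose effects on RNA were profiled.

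RNA was measured on Affymetrix Mouse430_2 arrays, 1 per sample, and each gene is given as the log2 of the deposited signal of its brightest probe set. Differences are TAE226 minus PP2, on the log2 scale, from 1 limma fit over all genes tested and all 15 arrays of the series, with its standard error (SE), 3 arrays a group and p-values adjusted by Benjamini and Hochberg. A gene is called where the adjusted p is under 0.05. The median SE was 0.0975. A gene is called dim in a group where all 3 of its arrays read below the array median, which lay between 6.30 and 6.51 on the 6 arrays. A fold against a dim group is given as "at least", with the dim arrays held at the array median. Where 2 of the 3 arrays of the lower group of a called gene were below it, this is said and a bound made in the same way is given. In 9 genes named below (Saa1, Usp18, Psmb8, Psmb9, Ereg, Plk3, Nfkbie, S100a4 and Iigp1) 1 array of the lower group was below it. In bulk RNA, fewer cells of a type and less RNA per cell cannot be told apart.

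Replicates were close. The median absolute log2 difference between 2 arrays of a group was 0.1 to 0.13, and between a TAE226 and a PP2 array it was 0.246 to 0.285. The label numbers of the arrays ran from 22 to 24 for TAE226 and from 25 to 27 for PP2, so label number and treatment cannot be told apart. Those of vehicle ran from 7 to 9. Whether the numbers give an order of processing is not known here. The ratio of 3′ to 5′ actin signal, a mark of RNA quality, was 1.33 ± 0.07 (SD, n = 3) under TAE226 and 1.57 ± 0.04 under PP2. These 2 sets of arrays did not overlap, and the two-sided exact permutation p was 0.1, the smallest that 3 against 3 can give. For Gapdh the ratios were 0.79 ± 0.04 and 0.83 ± 0.02 (exact p = 0.2). The part of RNA quality in the differences below was not tested. The 5 epithelial markers (Epcam, Krt8, Krt18, Cdh1, Krt19) were present on all 6 arrays, with a summed signal of 59634 to 66767 under TAE226 and 59400 to 61772 under PP2. Of the fibroblast markers 6 of 8 were below the median on all 6 arrays, as were 6 of 7 endothelial and 4 of 7 lymphocyte markers. Of 8 macrophage markers, 5 were below it, Cd68 and Itgam among them. The macrophage sum was 7207 to 7732 under TAE226 and 11730 to 12161 under PP2.

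RNA profiles differed widely between the inhibitors. Of 11458 genes tested, 4987 were called (43.5%). Under TAE226 2674 genes were higher (23.3%), and under PP2 2313 were (20.2%). The arrays of the 2 groups did not overlap for 6078 genes (53.0%). The median absolute difference was 0.23, and 814 genes (7.10%) were called with at least a 2-fold difference, 509 higher under TAE226 (4.44%) and 305 under PP2 (2.66%). These shares are the background for every count of list members below, and the median difference over all genes tested was 0.01.

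**Figure D1:**
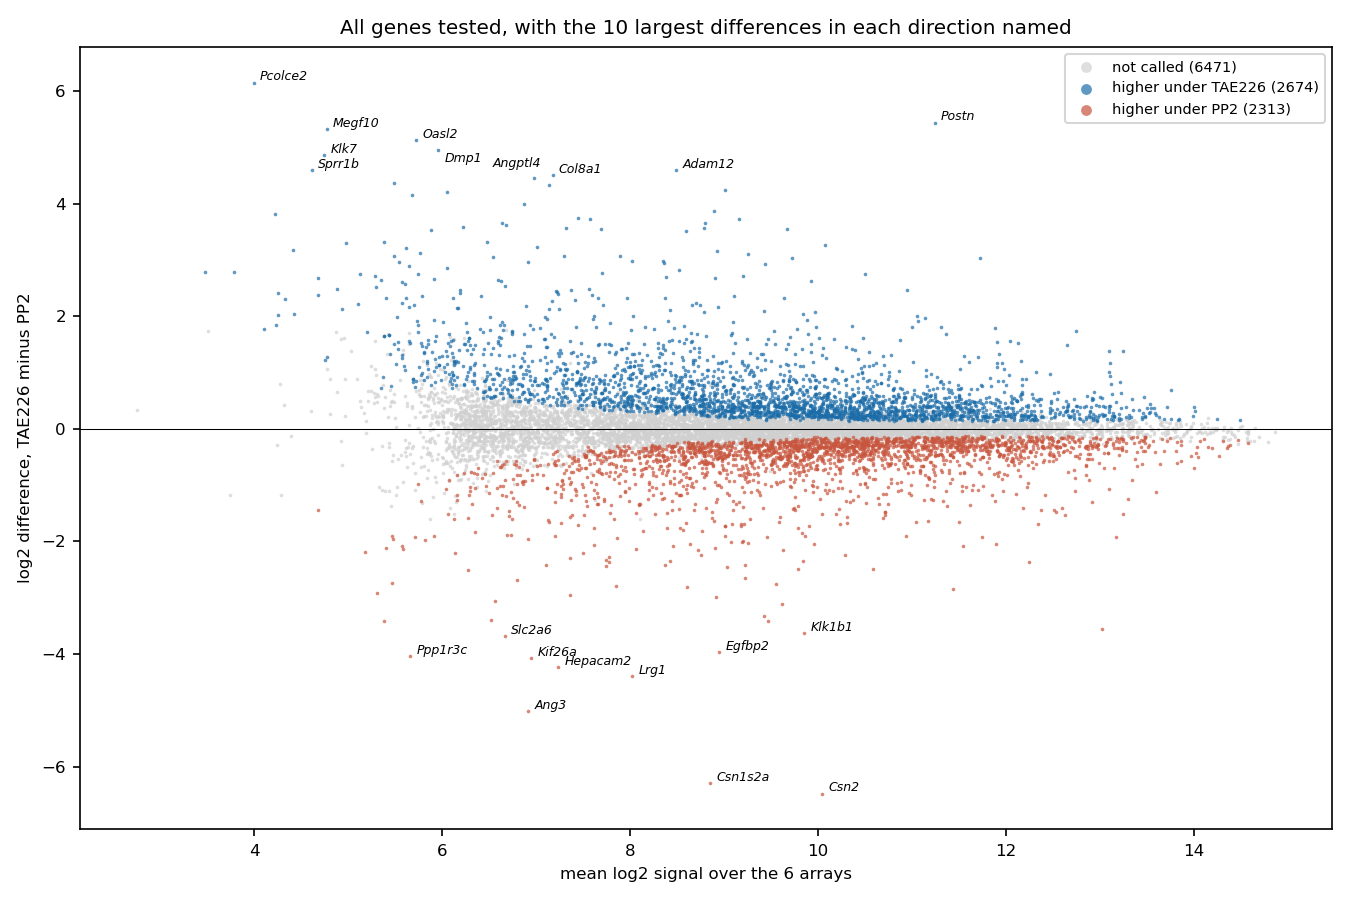
Log2 difference (TAE226 minus PP2, vertical axis) against mean log2 signal over the 6 arrays (horizontal axis), 1 point per gene tested, blue where called higher under TAE226 (2674 genes), red where called higher under PP2 (2313) and grey where not called (6471). The named points are the 10 largest differences in each direction among genes whose brighter group lay above the array median throughout, with Postn and Adam12 bright on the TAE226 side and Csn2 and Csn1s2a farthest on the PP2 side.

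The vehicle level lay nearer to TAE226 than to PP2 for most genes. No test against vehicle is reported here, and vehicle levels are given as a description. The vehicle arrays, with those of the other groups, still entered the spread that the limma fit estimated. Among the 4987 called genes the vehicle mean was nearer to the TAE226 mean for 3843 (77.1%), against 66.7% of all genes tested. It lay between the inhibitor means for 43.7%, above both for 30.2% and below both for 26.1%. Of the 305 genes at least 2-fold higher under PP2, vehicle was nearer to TAE226 for 86.9%, and of the 509 at least 2-fold higher under TAE226 for 78.6%.

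Among the genes of the inhibited kinases themselves, 3 of 9 tested members were higher under TAE226 and 2 under PP2, with a median of 0.06. The sign of this median rested on single arrays: it was -0.05 without TAE226 replicate 1, -0.02 without PP2 replicate 2 and 0.21 without TAE226 replicate 3. Ptk2b encodes Pyk2, the FAK relative, and read 7.57, 7.97 and 8.04 under TAE226 and 6.07, 5.68 and 6.29 under PP2, where it was dim. It was at least 2.72-fold higher under TAE226 (adjusted p = 2.01e-06), and the groups did not overlap. Fyn, a Src family kinase, read 8.37, 8.45 and 8.32 under TAE226 and 7.40, 7.28 and 7.23 under PP2, a difference of 1.08 (SE 0.12, adjusted p = 1.05e-06). Vehicle read 8.53, 8.72 and 8.23, close to TAE226. Igf1r, the IGF1 receptor, differed by 0.62 (SE 0.10, adjusted p = 0.00013) and Insr, the insulin receptor, by -0.54 (SE 0.08, adjusted p = 4.93e-05). The differences of these related receptors thus had opposite signs. The vehicle mean of Igf1r (8.62) was close to PP2 (8.59), and that of Insr (9.86) was close to TAE226 (9.77). Frk, a kinase related to Src, differed by -0.17 (adjusted p = 0.036), and another bright probe set of Frk had the opposite sign. The Frk call was lost when any TAE226 or PP2 array other than TAE226 replicate 3 was left out (adjusted p = 0.0601 to 0.176). The other 4 tested members were not called: Src itself (-0.13, SE 0.15, adjusted p = 0.517), Yes1 (0.06), Fgr (0.51) and Csk (-0.08), the kinase that switches Src off. The bright probe sets of Yes1 disagreed in sign, and their mean differed by -0.39 (adjusted p = 0.0138). Blk was too dim to be tested. Of the 15 members of this list, 10 had a probe set naming them alone. Ptk2, which encodes FAK, and Lyn, Lck and Ripk2 were among those not analysed here.

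Milk protein and alveolar genes stood highest under PP2. Caseins are the main milk proteins, and their transcription in mammary epithelium is driven by prolactin through STAT5. Of 20 tested members of the milk and alveolar list, 14 were higher under PP2, 2 were higher under TAE226 and 4 were not called, with a median difference of -1.08. The promoters of the 3 caseins with the largest differences are printed here because each holds a match to the STAT element TTCNNNGAA, which is the same on both strands and is marked by capitals. They run from 250 bases before to 50 after the start site (RefSeq, GRCm38.p6, 5′ to 3′ on the gene's strand): Csn2 at chr5:87699376-87699675, minus strand, Csn1s1 at chr5:87665958-87666257, plus strand and Csn1s2a at chr5:87774200-87774499, plus strand.
Csn2: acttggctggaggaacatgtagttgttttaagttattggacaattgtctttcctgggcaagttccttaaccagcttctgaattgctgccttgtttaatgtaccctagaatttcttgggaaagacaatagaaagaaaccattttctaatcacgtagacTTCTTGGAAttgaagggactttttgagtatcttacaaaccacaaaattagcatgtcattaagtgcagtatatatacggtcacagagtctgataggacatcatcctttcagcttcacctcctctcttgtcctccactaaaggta
Csn1s1: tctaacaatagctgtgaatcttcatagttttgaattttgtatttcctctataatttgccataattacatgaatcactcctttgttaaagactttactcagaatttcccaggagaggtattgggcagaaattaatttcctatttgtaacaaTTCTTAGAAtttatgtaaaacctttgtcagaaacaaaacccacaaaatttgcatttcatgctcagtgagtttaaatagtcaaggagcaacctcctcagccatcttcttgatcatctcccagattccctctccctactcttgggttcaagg
Csn1s2a: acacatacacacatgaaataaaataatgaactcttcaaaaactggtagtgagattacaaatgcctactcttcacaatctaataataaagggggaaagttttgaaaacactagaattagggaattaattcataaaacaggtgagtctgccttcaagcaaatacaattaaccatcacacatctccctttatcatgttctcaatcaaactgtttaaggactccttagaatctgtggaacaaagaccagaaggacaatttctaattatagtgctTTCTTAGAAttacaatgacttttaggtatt
The match begins 93 bases before the start in Csn2, 100 before it in Csn1s1 and 20 bases after it in Csn1s2a. Of 11 tested list members with 1 window in the table, these 3 held the motif (27.3%), against 8.49% of all 22862 genes with 1 window. A match of letters is a description and not a shown binding site.

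Csn2, which encodes beta-casein, read 7.06, 6.71 and 6.62 under TAE226 and 13.31, 13.13 and 13.39 under PP2. Its difference of -6.48 (SE 0.18, adjusted p = 2.41e-13) was the largest of any gene higher under PP2, equal to 89.3-fold. Vehicle read 6.54, 6.51 and 6.37, so the PP2 arrays stood apart from both other groups. Csn1s2a read 5.12, 6.29 and 5.70 under TAE226 and 12.15, 11.84 and 12.0 under PP2 and was dim under TAE226, at least 46.7-fold higher under PP2 (adjusted p = 8.69e-07). Csn1s1 read 11.26, 11.21 and 11.24 under TAE226 and 14.76, 14.85 and 14.78 under PP2, a difference of -3.56 (SE 0.09, adjusted p = 1.4e-13). Its vehicle arrays read 12.39, 12.40 and 12.49, between the inhibitors and nearer to TAE226. Btn1a1, a protein of the milk fat globule membrane, read 8.20, 8.16 and 8.19 under TAE226 and 10.85, 11.05 and 10.89 under PP2, a difference of -2.75 (SE 0.09, adjusted p = 5.9e-13). None of these 4 genes had overlapping arrays. Among the called members of the list, vehicle was nearer to TAE226 for 14 and nearer to PP2 for 2.

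STAT targets and cytokine feedback genes were split. Of 20 tested, 9 were higher under PP2, 5 were higher under TAE226 and 6 were not called, with a median of -0.30. The acute phase genes led the PP2 side. Hp (haptoglobin) read 8.77, 8.55 and 8.65 under TAE226 and 11.13, 10.93 and 10.98 under PP2, a difference of -2.35 (SE 0.35, adjusted p = 3.95e-05). Lbp, which binds bacterial lipopolysaccharide, differed by -1.66 (SE 0.08, adjusted p = 1.19e-10) and Saa1, a serum amyloid, by -1.53 (SE 0.23, adjusted p = 4.1e-05). Bcl3, a STAT3 target and IkappaB family member, differed by -1.09. Junb, also in this list, differed by 0.94, in the other direction. Secreted defence genes were split as well: of 19 tested, 7 were higher under TAE226 and 5 under PP2, with a median of -0.21 (-0.08 without PP2 replicate 1 and -0.05 with no filter on dim genes). Ltf (lactoferrin, a milk protein) read 12.15, 12.34 and 12.14 under TAE226 and 14.08, 14.26 and 14.07 under PP2, a difference of -1.93 (SE 0.08, adjusted p = 1.65e-11). The calcium-binding proteins S100a4 and S100a14 went the other way, by 2.98 and 1.80.

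Luminal markers were mixed. Of 13 tested, 5 were higher under PP2 and 3 under TAE226, with a median of -0.03. Kit, a receptor tyrosine kinase of luminal progenitors, read 11.77, 11.84 and 11.81 under TAE226 and 13.22, 13.35 and 13.25 under PP2, a difference of -1.47 (SE 0.05, adjusted p = 1.66e-12). Gata3 and Elf5, transcription factors of luminal and alveolar cells, differed by -1.09 (SE 0.05, adjusted p = 2.95e-11) and -1.04 (SE 0.09, adjusted p = 1.14e-07). In these 3 genes no array of one group reached the other group. Prom1, a membrane glycoprotein of luminal cells, was in contrast 2.88-fold higher under TAE226 (1.53). Of 12 tested basal and myoepithelial markers 6 were higher under TAE226 and 2 under PP2, with a median of 0.59 (0.46 with dim members held at their bound). This median was 0.35 with a pseudocount of 50 and 0.11 with no filter on dim genes. Sparc, a secreted matrix glycoprotein, read 12.08, 11.90 and 12.07 under TAE226 and 10.19, 9.95 and 10.14 under PP2, a difference of 1.92 (SE 0.08, adjusted p = 1.23e-11). Oxtr, the oxytocin receptor of myoepithelial cells, differed by 1.31 (SE 0.07, adjusted p = 1.31e-10) and the keratin Krt17 by 1.0, a call lost when all its probe sets were averaged (0.76, adjusted p = 0.152). Krt15, another keratin, read 6.53, 6.35 and 5.58 under TAE226 and 7.37, 7.50 and 7.48 under PP2. Of its TAE226 arrays 2 were below the array median, it was at least 1.96-fold higher under PP2 (adjusted p = 0.0273), and the call was lost without TAE226 replicate 3 and without each PP2 replicate (adjusted p = 0.0547 to 0.116). The summed signal of the 5 basal cell markers was 13949 to 14998 under TAE226 and 11801 to 12868 under PP2, and their part in the other differences was not tested.

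Interferon response genes gave one of the most one-sided patterns on the TAE226 side. These genes are induced by interferon receptors and many encode antiviral proteins. Of 26 tested members, 23 were higher under TAE226 and the other 3 were not called, with a median of 1.51 (1.30 with dim members held at their bound). The uncalled genes, named after their values were seen, were Mx1 (0.78, adjusted p = 0.133), Oas3 (1.23, adjusted p = 0.102) and Cmpk2 (1.16, adjusted p = 0.075). The promoter of Ifit1 is shown because it holds 2 copies of the interferon-stimulated response element, searched as GAAANNGAAA on both strands and marked by capitals (RefSeq, GRCm38.p6, chr19:34640639-34640938, plus strand).
Ifit1: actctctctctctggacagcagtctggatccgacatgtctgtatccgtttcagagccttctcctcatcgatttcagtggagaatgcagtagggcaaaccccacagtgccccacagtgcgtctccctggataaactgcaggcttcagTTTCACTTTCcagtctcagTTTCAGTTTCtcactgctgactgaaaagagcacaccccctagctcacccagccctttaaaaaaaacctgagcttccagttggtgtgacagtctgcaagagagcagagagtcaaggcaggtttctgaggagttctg
These copies begin 104 and 85 bases before the start and do not overlap each other. The windows of Oasl2 and Xaf1, also described below, held no match. The motif was found in 10 of 16 tested members with 1 window (62.5%) and in 3.58% of all 22862 genes with 1 window. Members were chosen as known interferon response genes, so the share describes the list and is not a result of these arrays.

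Ifit1, which binds viral RNA, read 9.38, 9.56 and 8.97 under TAE226 and 5.20, 4.45 and 5.26 under PP2. It was dim under PP2 and at least 7.41-fold higher under TAE226 (adjusted p = 3.51e-09). Vehicle read 11.73, 11.98 and 11.52, above both inhibitors. Usp18, a protease that removes ISG15 and dampens interferon receptor signalling, read 11.19, 11.31 and 10.91 under TAE226 and 7.33, 6.36 and 6.98 under PP2, a difference of 4.25 (SE 0.20, adjusted p = 3.8e-11). Xaf1, a pro-apoptotic interferon target, read 11.37, 11.52 and 11.43 under TAE226 and 8.14, 7.61 and 7.91 under PP2, a difference of 3.55 (SE 0.13, adjusted p = 2.38e-12). In both genes the vehicle arrays were higher still, at 12.40, 12.59 and 12.32 for Usp18 and 12.24, 12.27 and 12.20 for Xaf1, so the order was vehicle, TAE226, PP2. Oasl2, an oligoadenylate synthetase relative, was dim under PP2 and at least 3.66-fold higher under TAE226. For the 23 called members, vehicle was nearer to TAE226 in 23. MHC class I genes showed a smaller difference, with 7 of 12 tested higher under TAE226, 5 not called and a median of 0.30. The immunoproteasome subunit Psmb8 read 8.55, 8.75 and 8.43 under TAE226 and 6.54, 6.40 and 6.96 under PP2, a difference of 1.95 (SE 0.18, adjusted p = 2.27e-07), and the peptide transporter Tap1 differed by 0.92 (SE 0.12, adjusted p = 8.3e-06). Psmb9, another immunoproteasome subunit, differed by 0.65 (adjusted p = 0.0136), and its arrays overlapped. That call was lost without TAE226 replicate 2 (0.52, adjusted p = 0.0709) and without PP2 replicate 1 (0.44, adjusted p = 0.0826). Nlrc5, an activator of class I genes, was dim under PP2 (adjusted p = 0.0112, and 0.0553 without PP2 replicate 2).

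**Figure D2:**
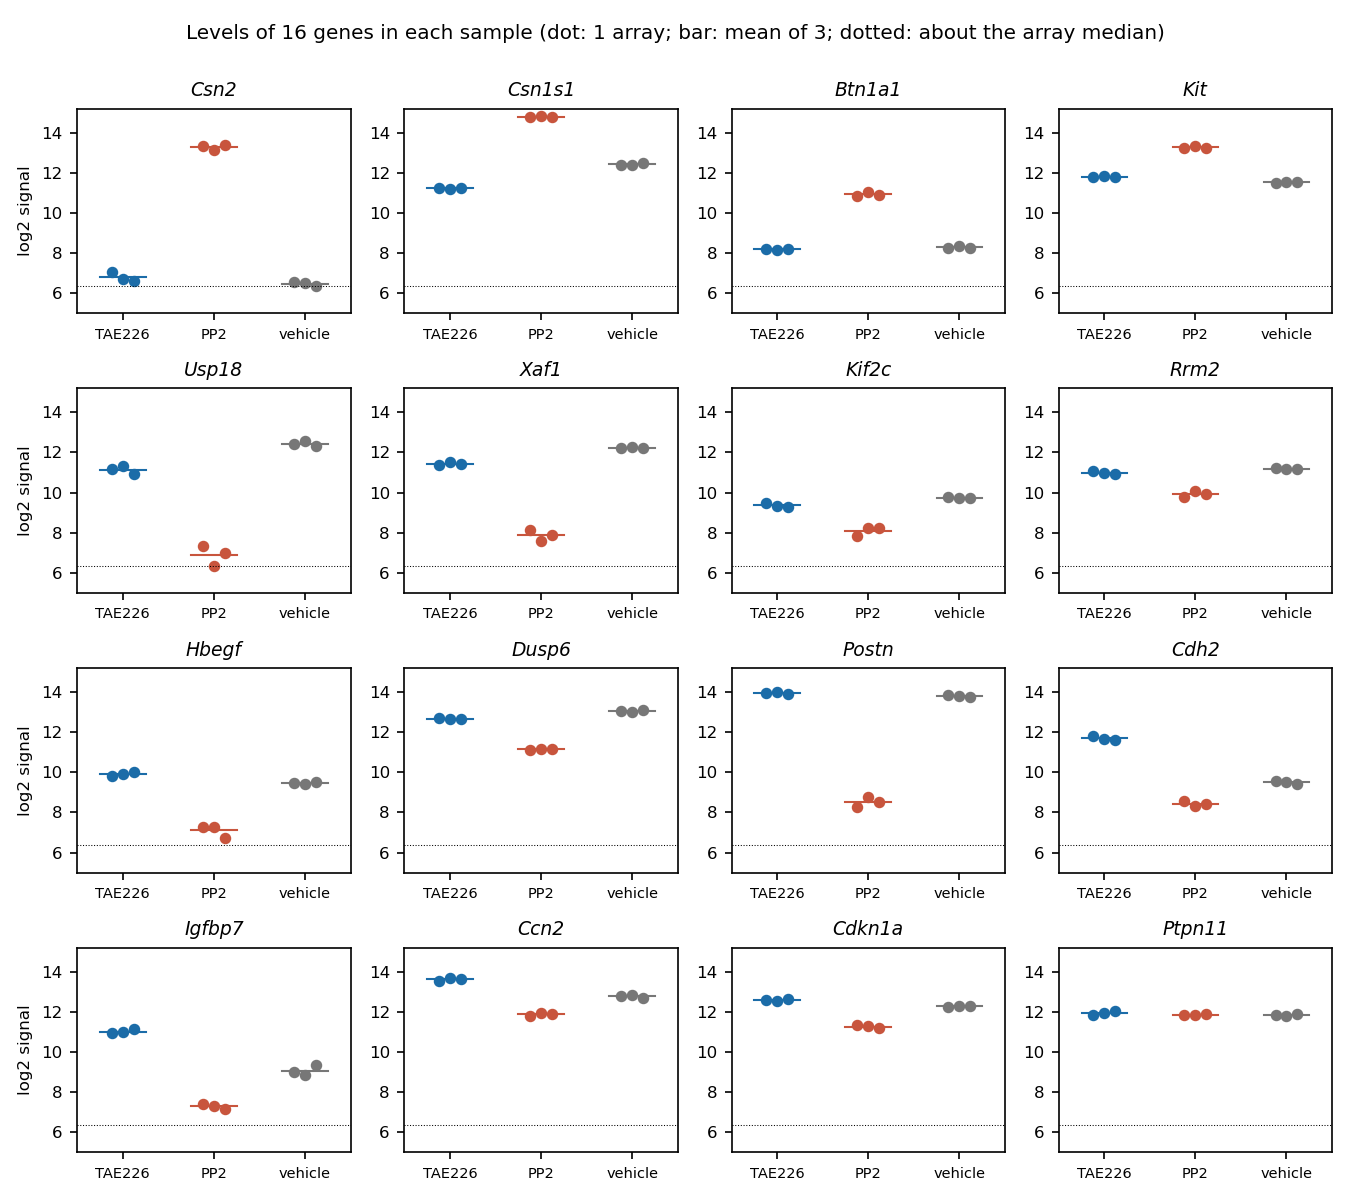
Log2 signal (vertical axis) of 16 genes in each TAE226, PP2 and vehicle sample, with 1 dot per array, a bar at the mean of 3 and a dotted line at about the array median. Csn2, Csn1s1, Btn1a1 and Kit stood highest under PP2, while Postn read 13.92 to 13.99 under TAE226 and 8.26 to 8.77 under PP2, and Ptpn11 (Shp2) lay at about the same level in the 3 groups.

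Proliferation genes were higher under TAE226. Of 31 tested G2/M and mitosis genes 30 were called higher under TAE226 and 1 was not called, with a median of 0.97. The uncalled gene, named after its value was seen, was Foxm1, a transcription factor of mitotic genes (0.41, adjusted p = 0.276). Of 30 G1/S and DNA replication genes, 24 were called higher under TAE226 and 6 were not called, with a median of 0.65. The promoter of Hmmr, a spindle-associated hyaluronan receptor, is printed because it holds the cell cycle homology region TTTGAA, through which many mitotic genes are repressed outside G2/M (both strands searched, match in capitals, RefSeq, GRCm38.p6, chr11:40733388-40733687, minus strand).
Hmmr: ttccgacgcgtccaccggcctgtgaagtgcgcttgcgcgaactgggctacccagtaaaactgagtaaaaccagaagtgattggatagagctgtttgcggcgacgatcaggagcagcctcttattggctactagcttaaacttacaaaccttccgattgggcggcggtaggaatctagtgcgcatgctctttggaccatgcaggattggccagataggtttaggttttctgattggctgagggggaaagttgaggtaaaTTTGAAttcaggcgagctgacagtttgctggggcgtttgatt
This match starts 8 bases after the start site. The window of Cenpe, described below, held no match. The motif was found in 17 of 24 tested G2/M members with 1 window (70.8%) and in 18.5% of all 22862 genes with 1 window. Here too the share describes a list of known mitotic genes and is not a result of these arrays.

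Cenpe and Kif2c, kinesins of the mitotic spindle, read 9.62, 9.34 and 9.28 under TAE226 and 7.88, 8.08 and 8.20 under PP2 (Cenpe) and 9.48, 9.35 and 9.29 under TAE226 and 7.86, 8.23 and 8.22 under PP2 (Kif2c). They differed by 1.36 (SE 0.11, adjusted p = 3.07e-08) and 1.27 (SE 0.10, adjusted p = 1.81e-08). Prc1, a spindle midzone protein, and Hmmr differed by 1.21 and 1.19. None of these 4 had overlapping arrays, and vehicle means lay above both inhibitors in all 4, nearer to TAE226 than to PP2. In the replication list, Mcm5 and Mcm3, parts of the replicative helicase, differed by 1.25 (SE 0.10, adjusted p = 2.02e-08) and 1.05 (SE 0.09, adjusted p = 1.38e-07). Rrm2, a subunit of ribonucleotide reductase, read 11.09, 10.98 and 10.92 under TAE226 and 9.78, 10.07 and 9.91 under PP2, a difference of 1.08 (SE 0.07, adjusted p = 1.64e-09). Uhrf1, which maintains DNA methylation at replication forks, differed by 1.10. The vehicle arrays of Rrm2 read 11.23, 11.16 and 11.19. Thus the TAE226 arrays of Rrm2 lay slightly below vehicle and its PP2 arrays lay lower still. The TAE226 mean was also below vehicle for Mcm5 (9.98 against 10.5), Uhrf1 (9.11 against 9.79) and Mcm3 (9.75 against 9.92).

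Genes of the study's senescence theme were called in both directions. Of 20 tested members of the cell cycle inhibitor and senescence list, 10 were higher under TAE226, 6 under PP2 and 4 were not called, with a median of 0.18. Cyclin genes Ccnd1 and Ccnd2, which drive G1 progression, differed by 1.16 (SE 0.06, adjusted p = 9.68e-11) and 1.91 (SE 0.10, adjusted p = 2.58e-10). Ccnd2 read 9.26, 9.36 and 9.46 under TAE226 and 7.54, 7.19 and 7.63 under PP2, and vehicle lay between at 8.41, 8.54 and 8.51. The CDK inhibitor Cdkn1a (p21) read 12.60, 12.55 and 12.63 under TAE226 and 11.34, 11.28 and 11.20 under PP2, a difference of 1.32 (SE 0.06, adjusted p = 5.46e-11), while Cdkn1b (p27) read 10.72, 10.79 and 10.70 under TAE226 and 11.60, 11.68 and 11.59 under PP2, a difference of -0.89 (SE 0.05, adjusted p = 1.34e-09). Thus p21 and p27 RNA had opposite signs, with the arrays separate in both. Rb1, the retinoblastoma protein gene, was higher under PP2, by 2.01-fold (-1.01). Cdkn2a (p16 and p19Arf) differed by 0.24 (SE 0.09, adjusted p = 0.0422), a call lost when any TAE226 or PP2 array other than TAE226 replicate 1 was left out (adjusted p = 0.0646 to 0.137). Cdkn2b (p15) differed by 0.13 (adjusted p = 0.0765, not called). Ptpn11, which encodes Shp2, read 11.84, 11.97 and 12.06 under TAE226 and 11.85, 11.86 and 11.89 under PP2. Its difference of 0.09 (SE 0.05, adjusted p = 0.181) was not called, and the arrays of the groups overlapped. It became called without TAE226 replicate 1 (0.15, adjusted p = 0.0293). Skp2, the ubiquitin ligase subunit that marks p27 for degradation, differed by 0.49 (SE 0.07, adjusted p = 3.45e-05). Of its 5 other bright probe sets, 1 had the opposite sign (-0.02) and the rest gave 0.38 to 0.54. Aurka, a mitotic kinase, differed by 0.83 (SE 0.09, adjusted p = 1.34e-06), and by 0.79 (adjusted p = 0.0803) when all its probe sets were averaged.

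Ribosome biogenesis and MYC target genes leaned the same way, with 24 of 32 tested higher under TAE226, 8 not called and a median of 0.49. Myc itself read 11.34, 11.48 and 11.47 under TAE226 and 10.09, 10.17 and 10.09 under PP2, a difference of 1.31 (SE 0.06, adjusted p = 4.01e-11), and vehicle read 11.35, 11.33 and 11.42. Vehicle and TAE226 arrays were close to each other and PP2 stood below. Among its targets, Cad, which starts pyrimidine synthesis, differed by 0.87 (0.13, adjusted p = 0.72, over all its probe sets), Utp20, a ribosomal RNA processing factor, by 0.86 and Odc1, the first enzyme of polyamine synthesis, by 0.76. Of 28 cytosolic ribosomal protein genes 6 were higher under TAE226, a share near that of all genes, 0 were higher under PP2 and 22 were not called. The median was 0.0. Rps25 (0.72) and Rpl12 (0.58) had the largest differences there, followed by Rpl14 (0.39) and Rpl35 (0.18). The call of Rpl35 was lost without TAE226 replicates 2 or 3 and without PP2 replicates 1 or 2 (adjusted p = 0.0528 to 0.179).

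Outputs of the ERK pathway were higher under TAE226. ERK signalling induces its own inhibitors, the dual-specificity phosphatases and Sprouty proteins, as well as ETS and AP-1 transcription factors. Of 19 tested, 15 were higher under TAE226, 1 under PP2 and 3 were not called, with a median of 1.03 (0.76 with dim members at their bound). Dusp6, the ERK phosphatase, read 12.69, 12.68 and 12.67 under TAE226 and 11.11, 11.17 and 11.14 under PP2, a difference of 1.54 (SE 0.06, adjusted p = 3.87e-12). Its vehicle arrays read 13.06, 13.02 and 13.13, above both inhibitors. Etv5, an ETS factor, read 11.31, 11.0 and 10.59 under TAE226 and 9.37, 9.28 and 9.49 under PP2, a difference of 1.59 (SE 0.16, adjusted p = 7.27e-07). Spry4 was dim under PP2 and at least 1.37-fold higher under TAE226, and Fosl1, an AP-1 subunit, was at least 1.17-fold higher. Immediate early genes, the first to be transcribed after growth factor stimulation, gave 10 of 14 higher under TAE226, 1 higher under PP2 and a median of 0.82 (0.67 with dim members at their bound). Fos read 11.01, 11.02 and 11.07 under TAE226 and 9.54, 9.70 and 9.48 under PP2, a difference of 1.46 (SE 0.08, adjusted p = 1.57e-10). Egr1 differed by 1.01 (SE 0.09, adjusted p = 1.41e-07). Maff, a small Maf protein, was dim under PP2 and at least 3.01-fold higher under TAE226.

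Most EGF family ligand genes tested were higher under TAE226. These ligands are shed from the cell surface and activate EGFR and other ERBB receptors. Of 11 tested members, 6 were higher under TAE226, 1 under PP2 and 4 were not called, with a median of 0.79. Hbegf read 9.83, 9.93 and 10.02 under TAE226 and 7.28, 7.30 and 6.73 under PP2, a difference of 2.82 (SE 0.12, adjusted p = 1.36e-11). Ereg (epiregulin) read 9.0, 8.53 and 8.81 under TAE226 and 6.56, 6.07 and 6.56 under PP2, a difference of 2.38 (SE 0.14, adjusted p = 1.06e-09). Epgn (epigen) differed by 2.36 (SE 0.10, adjusted p = 1.59e-11). In these 3 ligands vehicle lay between the inhibitors and nearer to TAE226. Tgfa differed by 1.29, but 1 of its other bright probe sets had the opposite sign. Btc (betacellulin) had the opposite sign (-0.40, adjusted p = 0.00144). The receptors Egfr (-0.15, adjusted p = 0.165), Erbb2 (-0.17, adjusted p = 0.199) and Erbb3 (0.10, adjusted p = 0.164) were not called. Btc and the receptors were named after their values were seen.

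**Figure D3:**
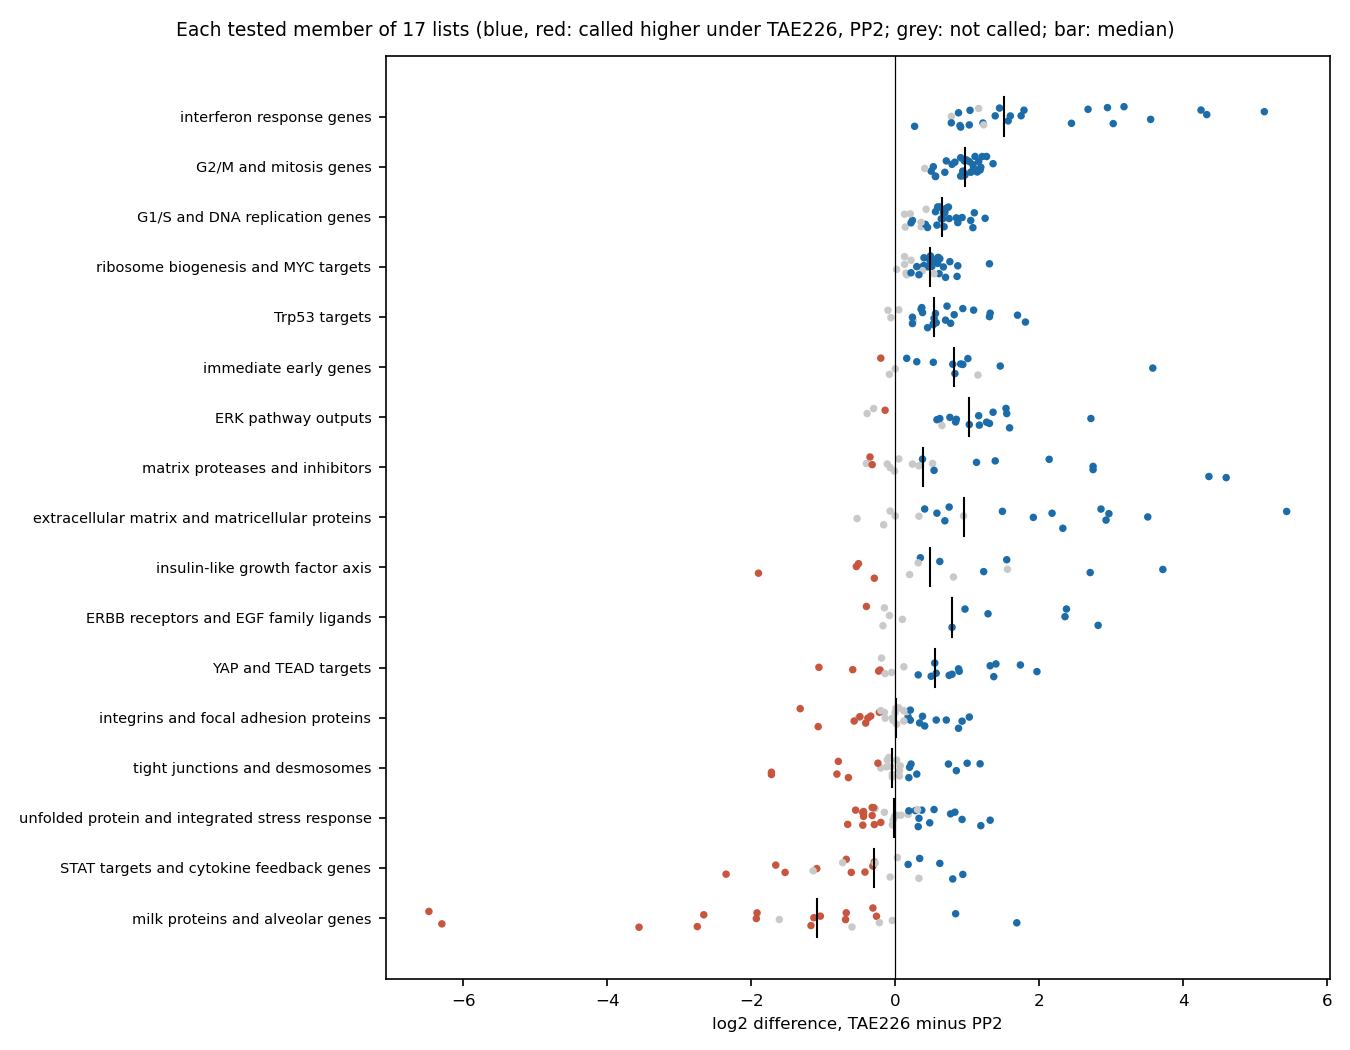
Log2 difference (TAE226 minus PP2, horizontal axis) of each tested member of 17 gene lists (rows), blue where called higher under TAE226, red where called higher under PP2 and grey where not called, with a bar at the list median. Interferon, mitosis and replication members lay on the right, milk members lay mostly on the left, and integrin, junction and stress response members lay on both sides.

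Extracellular matrix genes held several of the largest differences on the TAE226 side. Of 19 tested, 13 were higher under TAE226 and 6 were not called, with a median of 0.95 (0.72 with dim members at their bound). Postn (periostin), a matricellular ligand of integrins, read 13.96, 13.99 and 13.92 under TAE226 and 8.26, 8.77 and 8.52 under PP2, a difference of 5.44 (SE 0.09, adjusted p = 1.63e-16) or 43.5-fold. Vehicle read 13.86, 13.80 and 13.77, at the level of TAE226. Tnc (tenascin C), another matricellular protein, read 10.29, 10.40 and 10.35 under TAE226 and 6.52, 6.96 and 7.03 under PP2, a difference of 3.51 (SE 0.12, adjusted p = 1.66e-12), and Fn1 (fibronectin) read 10.70, 11.10 and 10.93 under TAE226 and 8.07, 8.18 and 7.67 under PP2, a difference of 2.93 (SE 0.14, adjusted p = 4.94e-11). For Tnc and Fn1 vehicle lay between the inhibitors. Lox, which cross-links collagen, was dim under PP2 and at least 3.94-fold higher under TAE226. Outside this list, the collagen gene Col8a1 was at least 8.06-fold higher under TAE226, and Pcolce2, an enhancer of procollagen processing, was at least 1.57-fold higher. Of the fibroblast markers 6 of 8 were below the array median on all 6 arrays, with a summed signal of 266 to 338 under TAE226 and 209 to 333 under PP2. The part of fibroblasts in these differences was not tested.

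Matrix proteases and their inhibitors gave 9 of 19 higher under TAE226, 2 higher under PP2 and 8 not called, with a median of 0.38. Adam12, a membrane-bound metalloprotease, read 10.73, 10.85 and 10.79 under TAE226 and 6.13, 6.04 and 6.39 under PP2. Of its PP2 arrays 2 were below the array median, and it was at least 20.3-fold higher under TAE226 (adjusted p = 5.11e-15). Adamts1, which cleaves proteoglycans, read 11.70, 11.94 and 11.98 under TAE226 and 9.04, 9.24 and 9.09 under PP2, a difference of 2.75 (SE 0.11, adjusted p = 6.75e-12). Plau (urokinase) was dim under PP2 and at least 1.06-fold higher, and Serpinb2, its inhibitor, at least 2.38-fold higher. Of 15 tested basement membrane genes 6 were higher under TAE226 and 2 under PP2, with a median of -0.03, which turned to 0.12 without PP2 replicate 2 and to 0.03 without PP2 replicate 1. Laminin chains differed in sign there: Lamb1 by 1.24 (SE 0.09, adjusted p = 1.15e-08) and Lamb2 by -0.93 (SE 0.10, adjusted p = 1.79e-06). Col4a1, a type IV collagen chain, differed by 0.89 and Npnt (nephronectin), an integrin ligand, by -0.93.

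In the insulin-like growth factor axis, 6 of 14 tested members were higher under TAE226, 4 under PP2 and 4 were not called, with a median of 0.49. Igfbp7, a secreted IGF-binding protein, read 10.94, 10.98 and 11.13 under TAE226 and 7.41, 7.30 and 7.17 under PP2, a difference of 3.72 (SE 0.11, adjusted p = 2.41e-13). Pappa, a protease that cleaves Igfbp4 and so frees IGF, read 10.58, 10.62 and 10.48 under TAE226 and 7.96, 7.67 and 7.93 under PP2, a difference of 2.71 (SE 0.16, adjusted p = 8.52e-10). Vehicle read 7.59, 7.32 and 7.07 for Pappa, with a mean below that of PP2, so here TAE226 stood apart. Igfbp4 read 10.05, 9.95 and 9.97 under TAE226 and 11.85, 11.94 and 11.86 under PP2, a difference of -1.90 (SE 0.08, adjusted p = 8.43e-12), opposite in sign to Pappa. Igfbp3 differed by 1.55.

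Among cadherins and genes of epithelial-mesenchymal transition (EMT), 4 of 12 were higher under TAE226, 2 under PP2 and 6 were not called, with a median of 0.23 (0.38 without TAE226 replicate 3 and 0.12 when all probe sets of a gene were averaged). Cdh2 (N-cadherin) read 11.82, 11.66 and 11.63 under TAE226 and 8.58, 8.32 and 8.44 under PP2, a difference of 3.26 (SE 0.11, adjusted p = 1.62e-12). Vehicle read 9.57, 9.51 and 9.44, between the inhibitors and nearer to PP2. Snai2, an EMT transcription factor, differed by 0.46 and Vim (vimentin) by 0.30 (adjusted p = 0.0152). The Vim call was lost without TAE226 replicate 1 and without PP2 replicates 1 or 2 (adjusted p = 0.055 to 0.0727). Epithelial cadherin Cdh1 was not called. Tight junction and desmosome genes were divided, with 8 of 25 higher under TAE226, 6 under PP2 and a median of -0.04. Tight junction genes Cldn8 and Tjp3 differed by -1.72 (SE 0.11, adjusted p = 2.05e-09) and -1.72 (SE 0.16, adjusted p = 2.76e-07), and desmosome genes Pkp1 and Dsp by 1.18 (SE 0.08, adjusted p = 2.14e-09) and 1.0 (SE 0.05, adjusted p = 5.67e-11). These 2 pairs had opposite signs.

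Adhesion genes themselves were divided. FAK and Src act together at focal adhesions, and YAP and SRF are transcriptional regulators that respond to adhesion and actin. Of 32 tested integrins and focal adhesion proteins, 11 were higher under TAE226, 8 under PP2 and 13 were not called, with a median of 0.02. Tln2 (talin 2), which links integrins to actin, read 9.81, 9.81 and 9.94 under TAE226 and 11.27, 11.20 and 11.05 under PP2, a difference of -1.32 (SE 0.08, adjusted p = 4.88e-10), and Tns4 (tensin 4) differed by -1.07 (SE 0.12, adjusted p = 1.89e-06). The integrin subunit Itgb6 differed by 1.03 (SE 0.14, adjusted p = 1.06e-05) and the actin cross-linker Flna by 0.93 (SE 0.07, adjusted p = 9.73e-09). SRF targets and contractile genes gave 7 of 11 higher under TAE226 and 4 not called, with a median of 0.40. Among these called members, vehicle was nearer to PP2 for 6 and nearer to TAE226 for 1. Cnn2 (calponin 2) read 11.16, 11.33 and 11.17 under TAE226 and 9.85, 9.82 and 9.93 under PP2, a difference of 1.36 (SE 0.06, adjusted p = 1.67e-11). Tropomyosin Tpm2 differed by 1.30, Mylk (myosin light chain kinase) by 1.17 and Tpm1 by 0.59.

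YAP and TEAD targets were mostly higher under TAE226: of 21 tested, 13 were higher under TAE226, 4 under PP2 and 4 were not called, with a median of 0.55. The promoter of Ccn1, a classical YAP target, is printed for its match to the TEAD element GGAATG. Both strands were searched, and the match, in capitals, is read here as the reverse complement (RefSeq, GRCm38.p6, chr3:145649936-145650235, minus strand).
Ccn1: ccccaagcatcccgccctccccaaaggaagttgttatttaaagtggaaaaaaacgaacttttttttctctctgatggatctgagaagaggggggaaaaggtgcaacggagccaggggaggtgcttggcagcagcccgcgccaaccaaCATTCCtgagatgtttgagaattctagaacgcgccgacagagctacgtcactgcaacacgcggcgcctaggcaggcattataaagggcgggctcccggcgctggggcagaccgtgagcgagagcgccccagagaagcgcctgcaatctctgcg
This match begins 103 bases before the start. The motif was found in 7 of 14 tested members with 1 window and in 14.6% of all 22862 genes with 1 window. This share again describes a list of known targets and is not a result of these arrays.
Ccn1 encodes a matricellular protein and read 12.27, 11.96 and 12.15 under TAE226 and 10.05, 10.04 and 10.36 under PP2, a difference of 1.97 (SE 0.12, adjusted p = 1.47e-09). Ccn2 (connective tissue growth factor) read 13.54, 13.69 and 13.64 under TAE226 and 11.80, 11.96 and 11.90 under PP2, a difference of 1.74 (SE 0.06, adjusted p = 1.97e-12). Vehicle lay between the inhibitors in both, at 10.85, 10.77 and 10.43 for Ccn1 and 12.82, 12.84 and 12.71 for Ccn2. Nt5e (CD73), which makes adenosine, differed by 1.40 and the receptor tyrosine kinase Axl by 1.37.

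Keratinization and squamous genes gave 11 of 19 higher under TAE226, 5 higher under PP2 and 3 not called, with a median of 0.63 (0.50 with dim members at their bound). The genes named here were dim under PP2, so their size is a bound. In the other direction the largest difference of a tested member was -2.46. Krt16 and Krt6b, keratins of stressed epidermis, were at least 2.54-fold and 1.54-fold higher under TAE226, Sprr1b, a cornified envelope protein, at least 1.41-fold and the kallikrein protease Klk7 at least 1.69-fold. Krt16 read 7.75, 7.77 and 7.76 under TAE226, so even the higher group was near the array median.

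p53 targets were higher under TAE226 for 21 of 25 tested members, with 4 not called and a median of 0.54. Pmaip1 (Noxa), a pro-apoptotic BCL2 family member, read 9.94, 9.88 and 9.97 under TAE226 and 8.04, 8.17 and 8.50 under PP2, a difference of 1.70 (SE 0.10, adjusted p = 9.83e-10), and vehicle read 9.13, 9.16 and 9.10, between them. Plk3, a stress-responsive kinase, differed by 1.81 (SE 0.27, adjusted p = 3.9e-05). The death receptor Tnfrsf10b read 7.01, 7.39 and 7.40 under TAE226 and 6.65, 5.24 and 5.98 under PP2, where 2 arrays were below the array median, and was at least 1.71-fold higher under TAE226 (adjusted p = 0.000739). The list also holds Cdkn1a. The BCL2 family as a whole was divided, with 4 of 15 higher under TAE226, 5 under PP2 and a median of -0.07. Bmf, which responds to loss of attachment, read 7.90, 7.58 and 7.40 under TAE226 and 9.86, 9.81 and 9.93 under PP2, a difference of -2.24 (SE 0.15, adjusted p = 4.11e-09), with vehicle at 7.73, 7.67 and 7.17. Here the PP2 arrays stood apart. Bcl2l11 (Bim) differed by -0.62 (SE 0.06, adjusted p = 2.99e-07) and Bnip3, a mitophagy receptor, by -0.67 (SE 0.06, adjusted p = 5.99e-08). Thus Bmf and Bim RNA were higher under PP2 and Noxa RNA under TAE226.

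FOXO factors and targets gave 3 of 17 higher under TAE226, 5 higher under PP2 and a median of -0.14. Cdkn1b and Insr, both in this list, were higher under PP2. Fbxo32, a ubiquitin ligase subunit, differed by 0.54. Pdk4, which blocks glucose oxidation, was dim under PP2 and at least 2-fold higher under TAE226. These members had no common direction.

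Cholesterol synthesis genes were higher under TAE226 for 9 of 20 tested, with 1 higher under PP2, 10 not called and a median of 0.23. Msmo1 differed by 0.61 (SE 0.06, adjusted p = 2.23e-07), Fdft1 by 0.55 and Cyp51 by 0.50, and Tm7sf2 by -0.62. The sign of Fdft1 turned when all its probe sets were averaged (-0.06). Fatty acid synthesis and SREBP1 genes gave 10 of 23 higher under PP2 and 5 under TAE226, with a median of -0.16. Thrsp, a regulator of lipogenesis in mammary gland and liver, read 9.92, 9.97 and 10.02 under TAE226 and 11.39, 11.42 and 11.55 under PP2, a difference of -1.48 (SE 0.08, adjusted p = 2.2e-10). Elovl6, which lengthens fatty acids, differed by -1.16 (SE 0.07, adjusted p = 2.43e-09), the desaturase Fads2 by -0.81 and Mid1ip1, a partner of acetyl-CoA carboxylase, by 0.65.

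Stress response genes were divided as well. Of 33 tested genes of the integrated stress response and the unfolded protein response, 12 were higher under TAE226 and 12 under PP2, with a median of -0.01. The 4 with the largest differences were all higher under TAE226 and are known targets of ATF4. Phgdh, the first enzyme of serine synthesis, read 10.32, 10.57 and 10.34 under TAE226 and 9.09, 9.17 and 9.0 under PP2, a difference of 1.32 (SE 0.07, adjusted p = 4.25e-10). Mthfd2, of mitochondrial folate metabolism, differed by 1.19 (SE 0.06, adjusted p = 7.08e-11), Chac1, which degrades glutathione, by 0.93 and Atf3 by 0.83. Heat shock genes gave 5 of 14 higher under TAE226 and 9 not called, with a median of 0.14. Hspb8, a small heat shock protein, differed by 1.63 (SE 0.07, adjusted p = 1.55e-11), Hsph1 by 0.56, and the mitochondrial chaperones Hspd1 and Hspe1 by 0.41 and 0.33 (for Hspe1 adjusted p = 0.0522 after median centring).

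NRF2 antioxidant genes gave 9 of 19 higher under PP2 and 6 under TAE226, with a median of -0.29. Gsta3, a glutathione S-transferase, read 7.38, 7.09 and 7.27 under TAE226 and 9.59, 9.55 and 9.64 under PP2, a difference of -2.35 (SE 0.10, adjusted p = 2.08e-11). Gsr (glutathione reductase) differed by -1.05 (SE 0.14, adjusted p = 1.05e-05) and Hmox1 (heme oxygenase) by 1.13 (SE 0.16, adjusted p = 2.96e-05), with opposite signs. Abcc4, an efflux pump, was dim under PP2 and at least 1.52-fold higher under TAE226. For the aryl hydrocarbon receptor and its targets, 2 of 7 were higher under TAE226 and 1 under PP2, with a median of -0.02. Aldh3a1, an aldehyde dehydrogenase, differed by -0.64 (SE 0.08, adjusted p = 3.26e-06), Nqo1 by 0.62 and Tiparp by 0.23 (adjusted p = 0.0975 after median centring).

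Hypoxia response and glycolysis genes were close to the background, with 8 of 31 higher under TAE226, 8 under PP2, 15 not called and a median of 0.0. Ndrg1 read 11.73, 11.62 and 11.59 under TAE226 and 13.13, 12.98 and 13.17 under PP2, a difference of -1.44 (SE 0.11, adjusted p = 1.14e-08). Aldoc, a glycolytic aldolase, and Car12, a carbonic anhydrase, differed by -1.29 (SE 0.05, adjusted p = 2.08e-12) and -1.15 (SE 0.09, adjusted p = 2.1e-08). Adm (adrenomedullin) was dim under PP2 and at least 1.05-fold higher under TAE226. Oxidative phosphorylation genes differed little: 7 of 36 were higher under PP2, 1 was higher under TAE226 and 28 were not called, with a median of -0.09. The largest differences were -0.35 for Cox8a, -0.28 for Ndufb5, -0.21 for Atp5g1 and 0.21 for Cox5a. The calls of Atp5g1 and Cox5a were lost after median centring (adjusted p = 0.0513 and 0.232), and that of Cox8a when its probe sets were averaged (adjusted p = 0.347). Lysosome and autophagy genes gave 10 of 29 higher under PP2, 5 higher under TAE226 and a median of -0.12. The lysosomal hydrolases Hexa, Gla and Ctsa differed by 0.87, 0.64 and -0.48, and the autophagy receptor Sqstm1 by 0.50. With its probe sets averaged, Ctsa gave an adjusted p of 0.0508.

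Chemokine and cytokine genes gave 9 of 21 higher under TAE226, 5 higher under PP2 and a median of 0.32 (0.09 with dim members at their bound). Ccl6 read 7.49, 7.32 and 7.46 under TAE226 and 10.26, 10.56 and 10.38 under PP2, a difference of -2.98 (SE 0.17, adjusted p = 3.72e-10). Ccl5, also an interferon target, read 8.0, 7.96 and 7.78 under TAE226 and 3.47, 6.58 and 5.76 under PP2. Its PP2 arrays were widely spread, 2 of them below the array median, and it was at least 2.77-fold higher under TAE226 (adjusted p = 0.00594). Cxcl2, a neutrophil attractant, was dim under PP2 and at least 2.23-fold higher under TAE226. Cxcl10 was dim under both inhibitors, so no fold is given. Of 16 tested NF-kappaB targets, 5 were higher under TAE226 and 4 under PP2, with a median of -0.03. Cxcl1, another neutrophil attractant, read 12.67, 12.85 and 12.94 under TAE226 and 11.32, 11.31 and 11.15 under PP2, a difference of 1.56 (SE 0.07, adjusted p = 3.8e-11). Tnfaip2 differed by -1.44 (SE 0.11, adjusted p = 1.26e-08), opposite in sign, while Nfkbie, an inhibitor of NF-kappaB, differed by 1.34 and the adhesion molecule Icam1 by 1.03. The macrophage sum given above was mostly Cd14 (-0.69), and its part in the chemokine differences was not tested.

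Developmental signalling lists showed no common direction. Notch pathway genes gave 4 of 14 higher under TAE226 and 3 under PP2, with a median of 0.08. Hey1, a direct Notch target, read 10.96, 10.90 and 10.94 under TAE226 and 12.25, 12.32 and 12.32 under PP2, a difference of -1.36 (SE 0.06, adjusted p = 5.28e-11), and the ligand Jag1 read 10.32, 10.45 and 10.43 under TAE226 and 9.26, 9.23 and 9.36 under PP2, a difference of 1.12 (SE 0.06, adjusted p = 5.27e-10). Lfng, which modifies Notch, was dim under PP2, and its call was lost without TAE226 replicate 2 (adjusted p = 0.0698) and without PP2 replicate 2 (adjusted p = 0.0635). Dtx1, a Notch regulator, differed by -1.24, but another bright probe set had the opposite sign and the mean of its probe sets was not called (-0.33, adjusted p = 0.347). WNT genes gave 4 of 16 higher under TAE226, 5 under PP2 and a median of -0.09. The WNT receptor regulator Rnf43 differed by -1.19 (SE 0.13, adjusted p = 1.27e-06), the ligand Wnt5b by -1.09 (SE 0.10, adjusted p = 1.37e-07), the R-spondin receptor Lgr6 by -0.94 and the feedback inhibitor Nkd2 by 0.86. TGF-beta and BMP genes were even, with 6 of 19 in each direction and a median of 0.14, which turned to -0.08 when all probe sets of a gene were averaged. Ltbp2, a matrix protein related to TGF-beta-binding proteins, read 10.79, 10.79 and 10.80 under TAE226 and 8.46, 8.57 and 8.40 under PP2, a difference of 2.32 (SE 0.07, adjusted p = 2.41e-13), and its relative Ltbp1 differed by -1.18 (-0.67, adjusted p = 0.118, over all its probe sets). The inhibitory SMADs had opposite signs, with 1.43 (SE 0.22, adjusted p = 4.9e-05) for Smad7 and -1.49 (SE 0.17, adjusted p = 2.72e-06) for Smad6.

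Mammary stem and tumour-initiating cell markers gave 6 of 20 higher under TAE226, 5 under PP2 and a median of -0.10, which turned to 0.04 when all probe sets were averaged. Sox11, a transcription factor, was dim under PP2 and at least 7.46-fold higher under TAE226, with 9.15, 9.44 and 9.35 there and 6.42, 6.93 and 6.58 under vehicle. Procr, a receptor that marks a basal stem cell population, was dim under PP2 and at least 3.29-fold higher. Kit, in this list too, had the opposite sign. Among cilia genes 3 of 12 were higher under TAE226 and 1 under PP2, with a median of 0.05. Foxj1, the master factor of motile cilia, read 10.29, 10.63 and 10.57 under TAE226 and 7.47, 7.20 and 7.34 under PP2, a difference of 3.16 (SE 0.12, adjusted p = 2.95e-12), and vehicle read 7.62, 7.59 and 7.50. TAE226 stood apart from both other groups in Foxj1. Cfap126, a ciliary protein, differed by 1.18 and Tppp3 by -1.16, while Rsph1, a radial spoke protein, was at least 1.22-fold higher under TAE226.

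**Figure D4:**
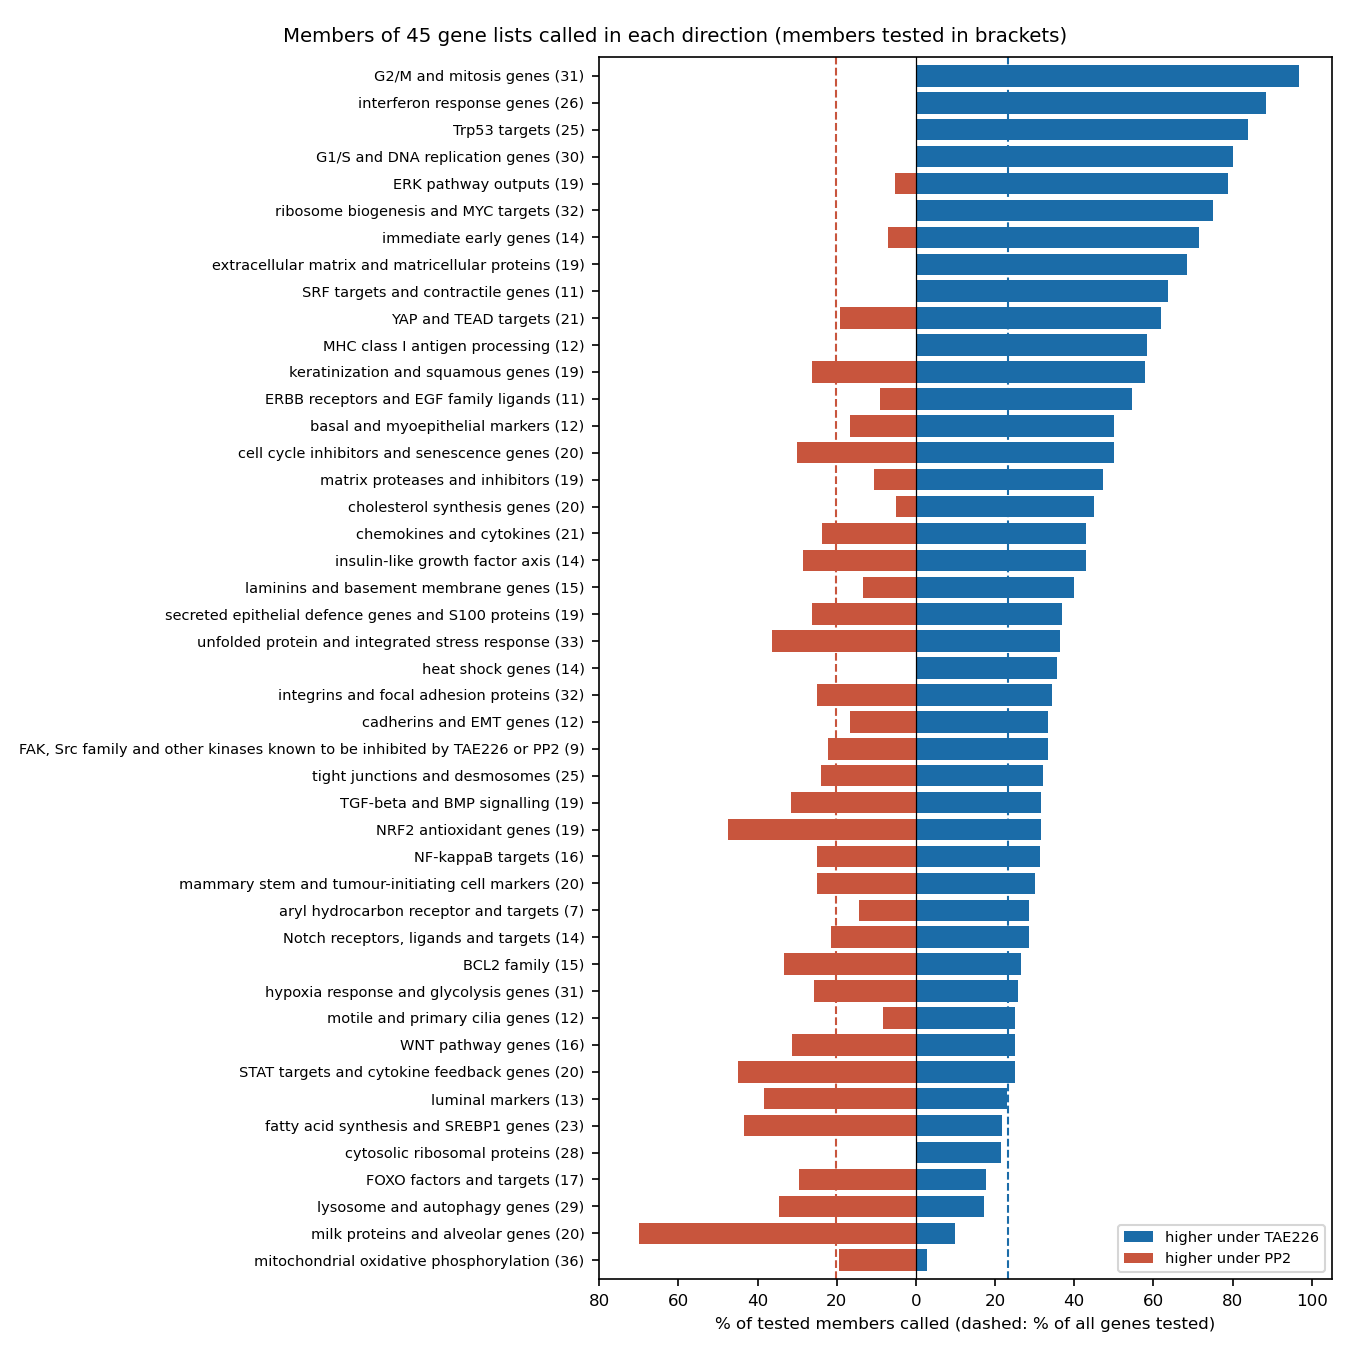
Percentage of tested members called higher under TAE226 (blue, to the right) and higher under PP2 (red, to the left) in each of 45 gene lists, with the number tested in brackets and dashed lines at the share of all genes tested (23.3% and 20.2%). The mitosis, interferon and p53 (Trp53) lists extend farthest to the right and the milk list farthest to the left, while ribosome, hypoxia and Notch lists lie near the dashed line on the TAE226 side.

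Several of the largest differences fell on genes outside these groups. On the TAE226 side were Dmp1, a phosphoprotein of mineralized matrix (dim under PP2, at least 4.07-fold), Angptl4, an inhibitor of lipoprotein lipase (at least 6.96-fold), and Megf10, an engulfment receptor (at least 2.02-fold). Angptl4 read 9.08, 9.30 and 9.26 under TAE226 and 4.87, 4.09 and 5.30 under PP2, with vehicle at 9.61, 9.77 and 9.78, near to TAE226. On the PP2 side were Ang3, a member of the angiogenin family (dim under TAE226, at least 7.82-fold), Hepacam2 (at least 7.48-fold), Kif26a (at least 5.78-fold), Slc2a6, a member of the glucose transporter family (at least 4.17-fold), and Ppp1r3c, a glycogen-targeting phosphatase subunit (at least 2.33-fold). Lrg1, a secreted glycoprotein and STAT3 target, read 6.53, 5.41 and 5.54 under TAE226 and 10.17, 10.31 and 10.17 under PP2. Of its TAE226 arrays 2 were below the array median, and it was at least 13.4-fold higher under PP2 (adjusted p = 8.8e-08). Vehicle read 7.46, 7.23 and 6.50, between the inhibitors. Klk1b1, a glandular kallikrein, read 8.15, 7.85 and 8.13 under TAE226 and 11.67, 11.68 and 11.65 under PP2, a difference of -3.63 (SE 0.11, adjusted p = 4.44e-13), and its relative Egfbp2 differed by -3.96 (SE 0.27, adjusted p = 5.39e-09). This kallikrein family was chosen for counting after its values were seen. Of its 9 tested genes 6 were higher under PP2 and 3 were not called. Among those higher under PP2, Klk1b8 and Klk1b16 were dim under both TAE226 and vehicle. The genes of this family are near-identical copies, and the Egfbp2 probe set is one whose name marks possible cross-hybridisation, so signals of single members are uncertain.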

How the data were processed

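RNA of 15 mammosphere samples, 3 each in 5 groups, was measured on Affymetrix Mouse430_2 arrays, and this account compares the 6 arrays of TAE226 and PP2 and describes the 3 of vehicle beside them. All 15 arrays entered the estimate of the spread. The deposited values are linear signal intensities of probe sets, which the authors made with Affymetrix Expression Console and MAS5 per the submitters' processing notes, whose versions the sources used here do not give. Each array's mean, trimmed by 2% at each end, was 500. MAS5 signals below the array median carry mostly background, and the log2 scale spreads such values widely.

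Of 45101 probe sets, 34945 named 1 gene in GEO's platform annotation, 932 named several and 9160 named none, besides 64 controls. Symbols were updated by Entrez number (34741 matched, 204 kept as they were), which left 18193 genes, each taken at its probe set of highest mean log2 signal. The 11458 genes that exceeded the array median on 3 or more of the 15 arrays were tested with limma 3.58.1 in R 4.3.3: 1 coefficient per group over 15 arrays, eBayes with an intensity trend, two-sided, Benjamini-Hochberg adjusted over all genes tested, called at an adjusted p under 0.05. Precision is limited by the number of arrays.

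Named genes were the 10 largest called differences in each direction with arrays that did not overlap and were above the array median in the brighter group, up to 4 called members per list by size, the inhibited kinases, and Cdkn1a, Cdkn1b, Cdkn2a, Cdkn2b, Ptpn11, Skp2 and Aurka. The groups, the lists and the rule were chosen with earlier results of these data known. The 45 lists hold 1073 distinct genes, of which 837 were tested, 160 were too dim and 76 had no probe set naming them alone. Alternatives varied the scaling, pseudocount, filter, probe set, arrays, moderation, replicate block and left-out arrays. Same-numbered TAE226 and PP2 arrays did not deviate together (correlations of -0.0381, 0.047 and -0.142), so no pairing was used.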

Additional observations from a re-analysis of the deposited data

How the results depend on the processing

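Of 195 named genes 189 were called, and 169 of these kept their call in each of 20 settings that tested them. The count of called genes was 4987, and 3751 after centring arrays on their medians (1798 higher under TAE226 and 1953 under PP2, with 3704 calls shared) and 3901 with the mean of all probe sets of a gene (3515 shared). With a pseudocount of 50 the genes at least 2-fold higher under TAE226 numbered 315 instead of 509. After median centring, vehicle was nearer to TAE226 for 68.9% of called genes instead of 77.1%. With the mean of all probe sets the TGF-beta and BMP median turned from 0.14 to -0.08, the stem cell marker median from -0.10 to 0.04, Fdft1 to -0.06 (adjusted p = 0.828) and Yes1 to -0.39. The cause of these shifts was not tested.

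Leaving out each TAE226, PP2 and vehicle array in turn (no other array was left out) gave 4336 to 5101 called genes, 2357 to 2726 higher under TAE226 and 1972 to 2375 higher under PP2, with 496 to 522 and 292 to 319 at least 2-fold, and 76.0% to 78.3% nearer to TAE226. It left 13 to 15 milk genes called higher under PP2, and 22 to 23 interferon, 30 G2/M, 20 to 24 G1/S and 20 to 21 p53 genes called higher under TAE226. The replicate block gave 4849 called genes, 4795 of them shared, and of the named genes it ended only the call of Frk. The numbers do not pair the samples. List medians moved more than counts: the matrix gene median was 0.72 to 1.40 with 1 array left out and 1.92 with the stricter filter on dim genes, and the keratinization median was 0.44 to 0.90 and 1.12. With 1 array left out, other list medians ranged from -0.25 to -0.07 for fatty acid genes, -0.17 to -0.03 for WNT, -0.17 to -0.08 for FOXO, -0.16 to -0.06 for lysosome, -0.12 to 0.03 for aryl hydrocarbon receptor, -0.05 to 0.09 for ribosome, -0.04 to 0.05 for stress response, 0.03 to 0.10 for Notch, 0.09 to 0.20 for heat shock and 0.15 to 0.27 for cholesterol genes. With no filter on dim genes the luminal median turned to 0.11, the cilia median was 0.45, the NRF2 median -0.14, the chemokine median 0.18 and the ERBB median 0.51. With all probe sets averaged the Notch median turned to -0.04, and the BCL2 and SRF medians were -0.21 and 0.62. The 6 arrays of TAE226 and PP2 fitted alone gave 4877 called genes, 4665 of them shared. Leaving out the vehicle arrays in turn was chosen after seeing the data and changed no call of a named gene. Ccn1, Kif2c, Mcm5, Rrm2, Phgdh, Odc1, Ndrg1, Wnt5b, Tnfaip2, Adm, Fdft1, Snai2, Vim, Rpl35 and Egfbp2 rest on probe sets marked _x_at, which may cross-hybridise. With such probe sets avoided, Vim (0.05, adjusted p = 0.546) and Rpl35 (0.13, adjusted p = 0.108) lost their calls. Signals near the array median limit the dim genes, whose folds are bounds. Inhibitor dose, kinase activity and cell number were not analysed here.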

Other observations

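Genes of this section were chosen after their values were seen, and all those given had TAE226 and PP2 arrays that did not overlap. They are single genes, and other members of their families were not counted. On the PP2 side, Clic6, a chloride channel relative, read 11.06, 10.94 and 11.20 under TAE226 and 13.36, 13.49 and 13.44 under PP2, a difference of -2.37 (SE 0.10, adjusted p = 1.11e-11). Foxi1, the transcription factor of proton-secreting cells, read 9.30, 9.24 and 9.49 under TAE226 and 11.86, 11.87 and 11.80 under PP2, a difference of -2.50 (SE 0.11, adjusted p = 2.66e-11). Atp6v1b1 and Atp6v1c2, subunits of the vacuolar proton pump, differed by -2.05 and -1.77. The sodium-glucose transporter Slc5a1, with 2 TAE226 arrays below the array median, was at least 5.33-fold higher under PP2. The nucleoside transporter Slc28a3 differed by -2.50, the phosphate transporter Slc34a2 by -1.51, the potassium channel subunit Kcne3 by -1.65 and the GABA receptor subunit Gabrp by -1.54. In these 9 genes the vehicle mean was nearer to TAE226 than to PP2.

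Higher under TAE226 were Emp1, an epithelial membrane protein, at 13.16, 13.32 and 13.24 under TAE226 and 9.99, 10.51 and 10.12 under PP2 (3.03), and Cav1, the main protein of caveolae, at 12.29, 12.14 and 12.11 under TAE226 and 9.72, 9.78 and 9.65 under PP2 (2.47). Vehicle arrays were close to TAE226 in both, at 12.97, 13.01 and 12.91 for Emp1 and 12.16, 12.07 and 12.09 for Cav1. Loxl3, a lysyl oxidase relative, differed by 3.65 (SE 0.10, adjusted p = 1.71e-13), the chromatin protein Hmga2 by 2.33, the transcription factor Ets1 by 2.01 and Col18a1, a basement membrane collagen, by 2.62. Fst (follistatin, which binds activin) and Vgll3 (a TEAD cofactor) differed by 3.11 (SE 0.12, adjusted p = 3.33e-12) and 3.57 (SE 0.11, adjusted p = 3.59e-13), and here vehicle was nearer to PP2. Among interferon-inducible GTPases outside the interferon list, 5 chosen for being higher under TAE226 are given: Gbp3 differed by 2.98 (SE 0.24, adjusted p = 3.76e-08), Iigp1 by 2.20 (SE 0.18, adjusted p = 3.34e-08), Irgm2 by 2.07, Gbp7 by 1.70 and Igtp by 1.51, with vehicle above both inhibitors in these 5 genes.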
